A study of Mus musculus with 6 samples.

Results

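The genes Npas4, Fos, Arc, Egr1 and Bdnf were followed as a set of activity-regulated neuronal genes. They were defined by position. All regions of the 5hmC count table whose midpoint lay inside 1 of 5 fixed windows of the mouse genome (build mm9) were taken. This gave 56 of the 192196 regions in the table, with 5 in the Npas4 window, 12 in the Fos window, 11 in the Arc window, 18 in the Egr1 window and 10 in the Bdnf window. The windows are set by position alone, while the genes were chosen with earlier results of these data known.

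5-Hydroxymethylcytosine (5hmC) is an oxidised form of 5-methylcytosine made by the Tet enzymes, and it is abundant in the DNA of the brain. Activity-regulated genes are switched on within minutes to hours when a neuron fires, through calcium signalling and transcription factors such as CREB, and astrocytes can also induce several of them. Their induction is part of how experience is turned into lasting changes of synapses, and Tet1 is known as an enzyme that acts on DNA methylation at some of them. Npas4 encodes a transcription factor of neurons that is induced by calcium influx. Fos encodes a subunit of the AP-1 transcription factor. Egr1, also called Zif268, encodes a zinc finger transcription factor. Arc encodes a synaptic protein that promotes the removal of AMPA receptors from the synapse. Bdnf encodes a secreted neurotrophin and has several promoters, some of which respond to activity.

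To examine these genes upon loss of Tet1, 2 libraries of Tet1 knockout (KO) mice were compared with 2 libraries of wild-type (WT) mice. KO mice lacked Tet1 constitutively, that is, in all cells. The labels name the tissue as brain, whereas the study describes astrocytes cultured from the cortex and hippocampus of newborn pups. The age, sex and number of animals behind each library are not given in the labels. The table has no gene names or expression values, so the cell type was not checked against marker genes, and the deleted gene itself was not measured here. The 2 labelled input libraries were not analysed here. DNA that carried 5hmC was tagged through an azide-bearing glucose, purified by means of biotin and sequenced, so each count is a number of reads of enriched DNA. Nothing in the labels says that the libraries came from separate cultures or animals, so p-values measure the spread between these libraries, which may be technical.

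The 5hmC libraries held between 16819455 and 19288900 counts in all. Counts were scaled to normalised read counts (CPM), that is, to a common library size after trimmed-mean (TMM) adjustment. A change of 5hmC shared by all regions is removed by this scaling, so the levels are relative. On the CPM scale, 3 counts corresponded to between 0.141 and 0.195 CPM. The KO libraries stood apart from each other. On chromosome Y, the regions summed to 82.8 CPM in KO sample 1 and 2.99 CPM in KO sample 2, against 286 and 257 CPM in WT. Results are therefore also given without each KO library. A single region took 8.52% and 27.3% of the counts of KO samples 1 and 2 and 13.1% and 25.0% of those of WT samples 1 and 2, so here the libraries of both genotypes were split by sample number. The part of these differences in the results was not tested.

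To show what kind of sequence is at issue, the 250 bases upstream of a transcription start are given for Fos, Npas4 and Bdnf. In mammals, 5hmC lies mainly at CpG, and CpGs are in capitals. The sequences are from RefSeq on GRCm38.p6, another build than that of the counts, so they were not placed among the regions. The table of promoters held 3 of the 5 genes, with 7 starts for Bdnf. Of these 7, the start shown is the one that held TGACG, searched on both strands, the core of the cAMP response element (CRE) bound by CREB.

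Fos, chr12:85473640-85473889, plus strand: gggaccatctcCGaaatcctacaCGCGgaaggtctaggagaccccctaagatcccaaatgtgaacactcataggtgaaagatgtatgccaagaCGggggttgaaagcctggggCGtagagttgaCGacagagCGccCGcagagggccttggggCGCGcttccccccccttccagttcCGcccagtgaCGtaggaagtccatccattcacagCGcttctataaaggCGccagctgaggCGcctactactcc
Npas4, chr19:4989972-4990221, minus strand: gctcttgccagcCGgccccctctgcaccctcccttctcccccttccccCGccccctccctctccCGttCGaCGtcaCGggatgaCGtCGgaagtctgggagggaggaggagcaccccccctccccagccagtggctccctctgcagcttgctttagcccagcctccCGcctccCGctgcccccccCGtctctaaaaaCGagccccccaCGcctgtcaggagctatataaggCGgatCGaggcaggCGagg
Bdnf, chr2:109692186-109692435, plus strand: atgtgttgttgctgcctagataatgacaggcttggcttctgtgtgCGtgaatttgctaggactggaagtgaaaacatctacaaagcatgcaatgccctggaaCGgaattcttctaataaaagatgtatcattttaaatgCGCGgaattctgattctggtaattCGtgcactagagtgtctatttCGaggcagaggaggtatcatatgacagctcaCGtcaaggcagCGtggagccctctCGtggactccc

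The Fos sequence held 15 CpGs and the Npas4 sequence held 16, against a median of 6 over 32841 promoters of the same length. The Bdnf sequence held 9. The core TGACG was found at 2 positions each for Fos and Npas4, and 17.77% of all promoters held it at least once. The Bdnf sequence held it at 1 position, but this start was chosen for holding it. The full site TGACGTCA, a palindrome that contains the core, was in none of the 3 sequences and in 1.55% of all promoters. These matches are descriptions of letters and not of bound sites.

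The level of 5hmC per 10 kb differed strongly among the windows, which hold flanks as well as the genes. Per kb covered by regions, given below, it differed less. The Fos window had the highest level, with 12.3 to 16.2 CPM per 10 kb of window over the 4 libraries. Egr1 followed with 8.70 to 11.3 CPM per 10 kb. Arc had 3.41 to 5.41, Npas4 2.23 to 5.57 and Bdnf 2.51 to 3.30 CPM per 10 kb. The ranges of Fos and Egr1 did not overlap each other, and that of Egr1 did not overlap that of Arc. Arc and Npas4 overlapped, as did Npas4 and Bdnf, so the order of these 3 windows was not resolved beyond the spread of the libraries.

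**Figure D1:**
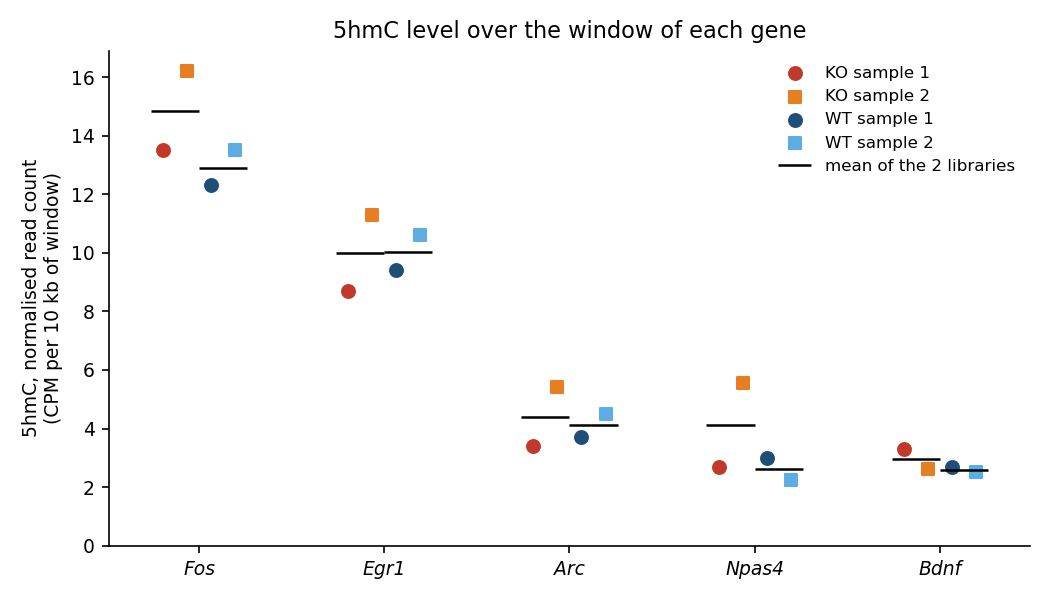
5hmC level over each gene window (y axis, normalised read count in CPM per 10 kb) for 5 genes (x axis), with 1 point per library and a line at the mean of the 2 libraries of a genotype. Fos and Egr1 lie above the other genes in all 4 libraries, and KO sample 2 is the highest library for Npas4, Fos, Arc and Egr1.

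The windows were set against 38906 other tiles of 50 kb that held at least 1 region, whose median level was 2.01 CPM per 10 kb. Fos lay at percentile 95.1 of the tiles and Egr1 at 90.1. Arc lay at 70.0, Npas4 at 63.8 and Bdnf at 58.6. All 5 windows thus stood above the median tile. The windows also differed in how many regions they held. Egr1 had 3 regions per 10 kb and Fos 2.40, against 1.83 for Arc, 1.00 for Npas4 and Bdnf and a median of 0.800 for tiles. Per kb covered by regions, the levels were closer, with 8.07 CPM for Fos, 7.58 for Egr1, 6.87 for Npas4, 5.49 for Arc and 5.32 for Bdnf, and a median tile of 5.85. On that scale Arc fell to percentile 42.4 and Bdnf to 39.0, below the median tile. The windows were 50 to 100 kb wide and held flanking sequence as well as the genes.

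**Figure D2:**
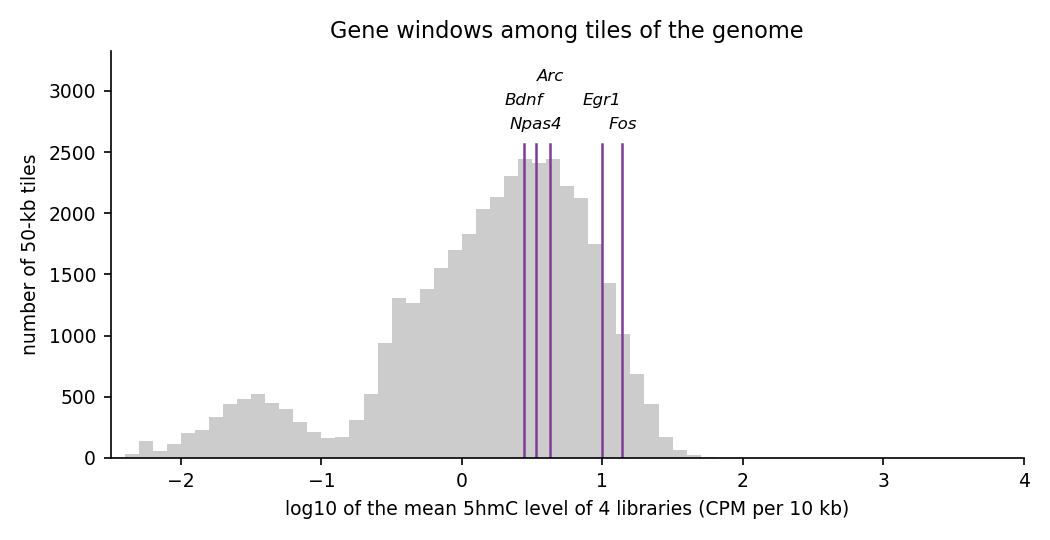
Distribution of the mean 5hmC level of the 4 libraries (x axis, log10 of CPM per 10 kb) over 38756 of 38906 tiles of 50 kb (y axis, number of tiles; the others lie outside the range drawn), with a line for each gene window. Fos and Egr1 lie in the upper tail, and Arc, Npas4 and Bdnf near the peak of the distribution.

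The table holds counts only inside regions, and how the regions were spaced and shared the count differed among the windows. The highest region held 34.4% of the normalised count of the Npas4 window, 26.7% for Fos, 24.1% for Bdnf, 16.7% for Arc and 14.6% for Egr1. These windows held 5, 12, 10, 11 and 18 regions in the same order. A window with fewer regions has larger shares on average, so these shares are not compared further. In the Npas4 window, which spans 4.96 to 5.01 Mb of chromosome 19, the first region lay 32.7 kb from the window start and all 5 regions lay within the stretch from 32.7 to 41.8 kb. In the Bdnf window, from 109.49 to 109.59 Mb of chromosome 2, 1 region lay at 0.6 kb and the next only after a gap of 45.0 kb without a region. The longest gap between neighbouring regions was 16.2 kb in the Egr1 window (34.99 to 35.05 Mb of chromosome 18). It was 6.82 kb in the Arc window (74.47 to 74.53 Mb of chromosome 15), with that of the Fos window (86.79 to 86.84 Mb of chromosome 12) in between. Stretches between a window end and the nearest region are not counted in these gaps. In the Arc window the first region lay 19.7 kb from the window start and the last at 45.5 kb of 60 kb. Regions covered 17.2% of the Fos window, 13.2% of Egr1, 7.76% of Arc, 5.22% of Bdnf and 4.91% of Npas4. No annotation of mm9 was used here, so regions were not assigned to exons, introns or promoters. In RefSeq the genes next to Npas4 are Mrpl11 and Slc29a2, those next to Egr1 are Gm41689 and Etf1, those next to Arc are Mroh4 and Gm32994, those next to Fos are Gm38543 and Gm32296, and those next to Bdnf are the pseudogenes Gm13924 and Gm13932. Whether a window reaches into a neighbour was not determined.

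The 2 regions of highest normalised count in the set were both in the Fos window. The region on chromosome 12 from 86838254 to 86839450 held 265 and 372 counts in KO samples 1 and 2 and 314 and 357 in WT, or 12.4, 24.2, 16.8 and 20.8 CPM. It lay at percentile 98.4 of all tested regions by mean CPM. The region from 86802740 to 86804184 had 15.3, 16.5, 15.9 and 15.1 CPM in the same order, at percentile 97.3. Its 4 libraries were close together, while the former was spread more widely, with the KO libraries at both ends. The former held 26.7% and the latter 22.6% of the normalised count of the Fos window. These values and percentiles are not divided by width, and the regions were wide, at 1197 and 1445 bp. Per kb of region they had 15.5 and 10.9 CPM. The highest regions of Egr1 and Bdnf, described next, had 13.3 and 12.1 CPM per kb.

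In the Egr1 window, the highest region (chromosome 18, 35025752 to 35026411) had 9.85, 8.26, 8.23 and 8.78 CPM in KO samples 1 and 2 and WT samples 1 and 2. In the Bdnf window it was the region from 109546622 to 109547176 of chromosome 2, with 6.89, 6.70, 6.95 and 6.28 CPM. Both were nearly level over the 4 libraries. The highest region of Npas4, from 4993802 to 4994513 of chromosome 19, had 3.56, 8.78, 6.30 and 4.54 CPM, with KO samples at both ends again. The highest region of Arc, from 74500517 to 74501014 of chromosome 15, had 3.28, 2.08, 4.86 and 6.86 CPM, and here both KO libraries lay below both WT libraries. Over all 56 regions, the mean level ran from 0.572 to 18.5 CPM with a median of 2.53, beside a median of 2.76 CPM over all tested regions. Regions were 219 to 1445 bp wide with a median of 451 bp, against 435 bp in the whole table.

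**Figure D3:**
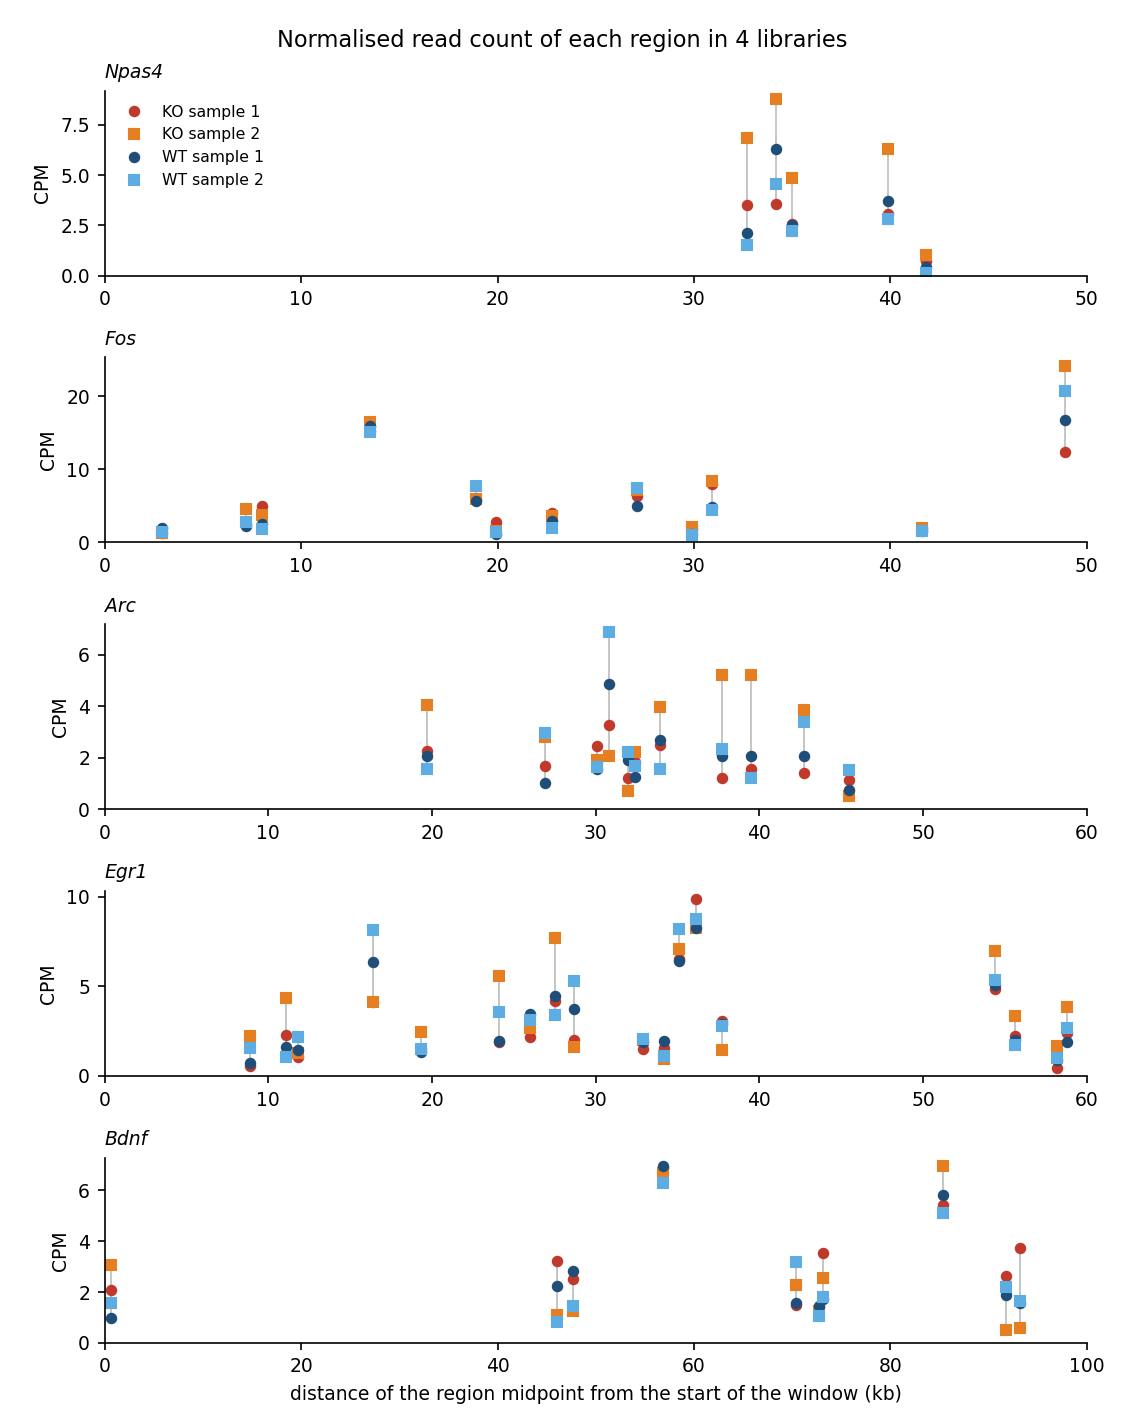
Normalised read count (y axis, CPM) of each of the 56 regions in the 4 libraries against the distance of the region midpoint from the start of its gene window (x axis, kb), with 1 panel per gene and a grey line spanning the libraries of a region. The highest regions of Egr1 and Bdnf have nearly the same value in all libraries, and in all 5 Npas4 regions KO sample 2 is the highest library.

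The level of 5hmC over the gene windows was next compared between genotypes. None of the 5 windows differed beyond the spread between libraries, and KO and WT libraries overlapped in all 5. Tiles and windows were tested together with edgeR's quasi-likelihood test. Of 34879 tested, 0 passed at a Benjamini-Hochberg adjusted p under 0.05 (0%), 502 (1.44%) had an unadjusted p under 0.05, and DESeq2 called 1. Of the 5 windows, 0 passed by either tool, and 0 had an unadjusted p under 0.05 by either, beside 1.12% of tiles and windows by DESeq2. Npas4 had an unadjusted p of 0.0354 by edgeR when libraries were blocked by their number, where 3.22% of tiles and windows were under 0.05. Its unadjusted p by edgeR was 0.0405 when the highest region of each window was left out. In that fit 1.44% of tiles and windows were under 0.05, but the tiles kept all their regions. The adjusted p was 1 in both. Over all tiles and windows, the KO and WT libraries did not overlap in 26.7%.

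Npas4 showed the largest difference. The 2 KO samples had 13.4 and 27.8 CPM over its window, and the 2 WT samples 15.1 and 11.2. Only KO sample 2 stood out, and KO sample 1 lay between the WT libraries. The mean was 20.6 ± 10.2 CPM in KO and 13.1 ± 2.76 in WT (SD, n = 2 each). On the log2 scale KO exceeded WT by 0.65 ± 0.36 (SE; 95% interval -0.17 to 1.47), and edgeR gave an adjusted p of 1. Taken by sample number, the log2 ratio of KO to WT was -0.17 for sample 1 and 1.32 for sample 2. Without KO sample 1, the log2 fold change was 1.08 and passed with an adjusted p of 2.94e-05 by edgeR, in a fit that called 16.9% of all tiles and windows. Without KO sample 2, it was 0.03 with an adjusted p of 0.978 by edgeR, where 1.75% were called. In both fits the lone KO library was assumed to vary like the WT pair.

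Fos had 67.5, 81.1, 61.5 and 67.5 CPM in KO samples 1 and 2 and WT samples 1 and 2. Its mean was 74.3 ± 9.64 CPM in KO and 64.5 ± 4.23 in WT (SD, n = 2 each), and the log2 difference was 0.20 ± 0.18 (SE; interval -0.22 to 0.62). Without KO sample 1 its adjusted p by edgeR was 0.0512 at a log2 fold change of 0.33, and without KO sample 2 it was 0.879 at 0.07. Egr1 had 52.2, 67.6, 56.5 and 63.5 CPM in the same order. The KO mean of 59.9 ± 10.8 CPM and the WT mean of 60.0 ± 4.94 (SD, n = 2 each) were nearly equal, and the interval of the log2 difference ran from -0.45 to 0.44. The direction of this small difference turned under other settings, so none is given.

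Arc had 20.5, 32.4, 22.3 and 26.9 CPM, and both sample 2 libraries were above both sample 1 libraries. The difference on the log2 scale was 0.10 ± 0.26 (SE; interval -0.50 to 0.70). Leaving out KO sample 1 gave 0.40 and leaving out KO sample 2 gave -0.26, so the direction for Arc rested on single libraries. Bdnf had 33.0, 26.2, 26.9 and 25.1 CPM, and here KO sample 1 was the highest library. The difference on the log2 scale was 0.19 ± 0.21 (SE; interval -0.30 to 0.67). Leaving out each library in turn gave 0.01 to 0.34 for Bdnf, and it did not pass in any of these fits. The adjusted p by edgeR was 1 for all of Fos, Egr1, Arc and Bdnf. All 4 of these intervals stayed within 1 log2 unit on either side of 0, while that of Npas4 reached beyond 1.

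How far the libraries of 1 genotype lay apart varied among the genes. The log2 ratio of KO sample 2 to KO sample 1 was 1.05 for Npas4, 0.66 for Arc, 0.37 for Egr1, 0.27 for Fos and -0.33 for Bdnf. By size, that of Npas4 was at percentile 96.4 of the 16260 tiles with a summed count of at least 1000, and that of Bdnf at 49.0. The corresponding WT ratio was -0.43 for Npas4, at percentile 95.5, and between -0.10 and 0.27 for the other genes. The Npas4 window was therefore one in which both pairs of libraries differed more than in most tiles, and it held the fewest counts of the 5 windows, 192 to 428 per library. Over tiles, the median size of the log2 ratio was 0.34 within the KO pair and 0.13 within the WT pair.

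Single regions were examined next. All 56 passed the filter on low counts. By edgeR's quasi-likelihood test over 176957 regions, 0 regions in the table passed at adjusted p under 0.05 (0%), and so 0 of the 56 did. At an unadjusted p under 0.05 there were 7 of 56 (12.5%), beside 2.81% of all tested regions, and DESeq2 gave 5 of 56, beside 1.89%. Of these 7, 4 were higher and 3 lower in KO, beside 1.54% and 1.27% of all tested regions. The KO and WT libraries did not overlap in 23 of 56 (41.1%), 16 higher and 7 lower in KO, beside 30.9% of all tested regions, 15.3% higher and 15.6% lower. Of the 56, 38 had a log2 fold change above 0, beside 51.9% of all tested regions, and their median was 0.21, beside 0.02. Neighbouring regions share a locus and are not independent. The 7 became 2 with total-count scaling, beside 1.12% of all tested regions. They became 18 without KO sample 1 (beside 23.4%), 9 without KO sample 2 (beside 11.2%), 3 without WT sample 1 (beside 0.686%) and 0 without WT sample 2 (beside 0.575%). At adjusted p under 0.05, 6 of the 56 passed without KO sample 1, 4 higher and 2 lower in KO, beside 7.52% of all tested regions. Without KO sample 2, 0 of the 56 passed, beside 1.09% (edgeR).

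**Figure D4:**
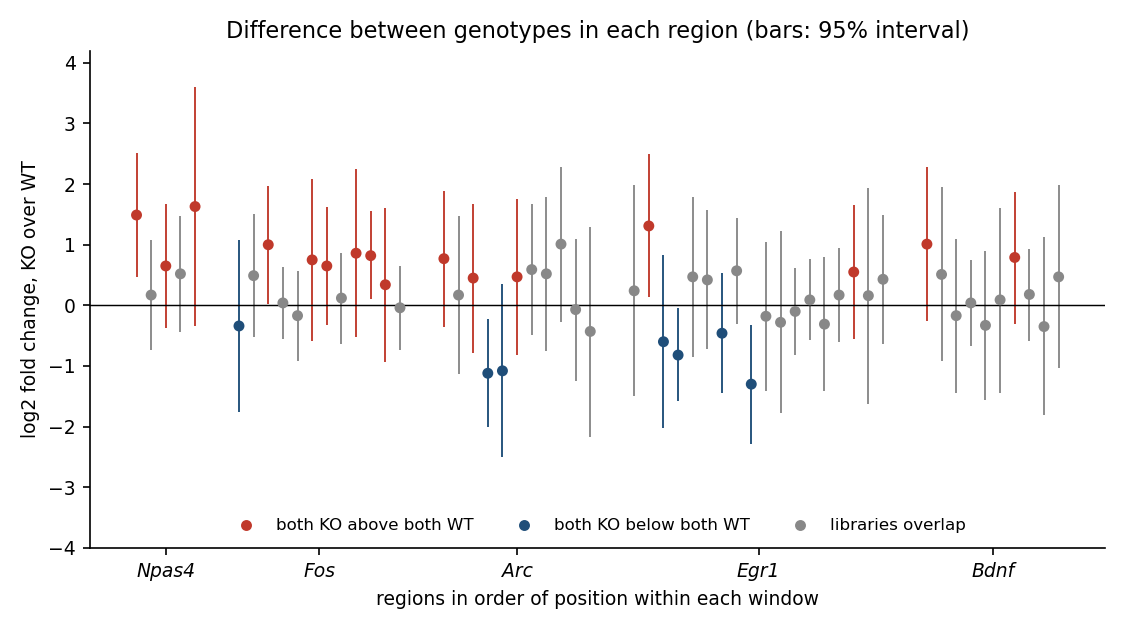
Log2 fold change of KO over WT (y axis) for each of the 56 regions, in order of position within each gene window (x axis), with bars for the 95% interval and colours for regions whose KO libraries lie all above or all below the WT libraries. The 5 Npas4 points lie above 0, and the points below 0 with separate libraries are gathered in Arc and Egr1, with 1 in Fos.

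Npas4 had 5 of 5 regions with a log2 fold change above 0, beside 51.9% of all tested regions. Of these, 3 were higher in KO with separate libraries, beside 15.3%. The region of lowest p of the whole set was here. On chromosome 19 from 4992464 to 4992904, the KO libraries had 75 and 105 counts and the WT libraries 40 and 26, or 3.52, 6.83, 2.14 and 1.51 CPM. Both KO libraries were above both WT libraries, although the KO libraries were far apart. KO exceeded WT by 1.49 ± 0.48 (SE) on the log2 scale, at an unadjusted p of 0.00681 and an adjusted p of 1 (edgeR). Without KO sample 1 it passed, at 1.90 on the log2 scale (adjusted p = 0.000573, edgeR), and without KO sample 2 it was 0.94 (adjusted p = 0.457, edgeR). The region next to it, from 4993802 to 4994513, had a log2 fold change of only 0.17 ± 0.43 (SE). In WT the former had the lower CPM of these neighbours, with 1.82 ± 0.442 against 5.42 ± 1.25 CPM (SD, n = 2 each). In KO they were closer, with 5.17 ± 2.34 and 6.17 ± 3.69 CPM (SD, n = 2 each). These values are not divided by width, and the former region was narrower, at 441 bp against 712 bp. Per kb of region, the means over the 4 libraries were 7.93 and 8.14 CPM. The last region of the window, from 5001650 to 5001868, held 15 and 16 counts in KO against 8 and 2 in WT, of which the lowest was under the floor of 3 counts.

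Fos had 9 of 12 regions with a log2 fold change above 0, beside 51.9% of all tested regions. With separate libraries, 6 were higher and 1 lower in KO, beside 15.3% and 15.6%. The region from 86820360 to 86821436 of chromosome 12 held 172 and 130 counts in KO against 91 and 77 in WT, or 8.06, 8.45, 4.86 and 4.48 CPM. Here the libraries of each genotype lay close together, at 8.26 ± 0.274 CPM in KO and 4.67 ± 0.271 in WT (SD, n = 2 each). This difference of 0.82 ± 0.34 (SE) on the log2 scale had an unadjusted p of 0.0290 and an adjusted p of 1 (edgeR). It stayed between 0.76 and 0.89 when each library was left out in turn, with a lowest adjusted p of 0.0709. The region from 86797814 to 86798274 had 4.97, 3.77, 2.56 and 1.80 CPM and a log2 fold change of 1.00 ± 0.46 (SE). The 2 Fos regions of highest count described above had log2 fold changes of -0.04 and 0.04. No region of the Fos window passed the adjusted threshold.

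Arc had 7 regions above 0 and 4 below, beside 51.9% of all tested regions above 0. The region that was highest in this window, from 74500517 to 74501014 of chromosome 15, was also the one of lowest p, with 70 and 32 counts in KO against 91 and 118 in WT. It had 2.68 ± 0.850 CPM in KO and 5.86 ± 1.41 in WT (SD, n = 2 each). The log2 difference of -1.12 ± 0.42 (SE) had an unadjusted p of 0.0176 and an adjusted p of 1 (edgeR). Without KO sample 1 it was -1.48 at an adjusted p of 0.0112, and without KO sample 2 it was -0.83 at an adjusted p of 0.331 (edgeR). The regions from 74507513 and from 74509229 also passed without KO sample 1, both higher in KO, at 1.24 and 1.65 (adjusted p 0.0495 and 0.0103, edgeR). Without KO sample 2 their log2 fold changes were -0.85 and -0.10 (adjusted p 0.658 and 0.977, edgeR), so their direction rested on KO sample 2. The next region, from 74501869 to 74502105, was also lower in both KO libraries, with 1.22 and 0.715 CPM against 1.92 and 2.21. The regions on either side of this pair, from 74499890 and from 74502162, had log2 fold changes of 0.45 and 0.47, with both KO libraries above both WT libraries. By their estimates alone, neighbouring regions of the Arc window thus lay on opposite sides of 0, which the sum over the window did not show. The intervals of the regions from 74499890, 74501869 and 74502162 included 0, at -0.78 to 1.67, -2.5 to 0.35 and -0.82 to 1.76. Libraries did not overlap in 30.9% of all tested regions, and these neighbours were chosen after their values were seen. The change of direction between them was therefore not resolved. None of the Arc regions passed the adjusted threshold with all 4 libraries.

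Egr1 had 10 regions above 0 and 8 below, beside 51.9% of all tested regions above 0. The lowest p was that of the region from 35018461 to 35018945 of chromosome 18, with 43 and 25 counts in KO against 70 and 91 in WT, or 2.02, 1.63, 3.74 and 5.29 CPM. Both KO libraries were below both WT libraries, with a log2 difference of -1.30 ± 0.46 (SE), an unadjusted p of 0.0129 and an adjusted p of 1 (edgeR). Without KO sample 1 the adjusted p was 0.0322 at -1.46, and without KO sample 2 it was 0.207 at -1.16 (edgeR). The region from 35006088 to 35006717 was also lower in KO, with 4.13 and 4.10 CPM against 6.36 and 8.14 (log2 difference -0.82 ± 0.36, SE). In the other direction, the region from 35000955 to 35001290 had 2.30 and 4.36 CPM in KO against 1.60 and 1.05 in WT (log2 difference 1.31 ± 0.56, SE). It passed without KO sample 1 at 1.71 (adjusted p = 0.0181, edgeR), and was at 0.79 without KO sample 2 (adjusted p = 0.688, edgeR). The pair of strong neighbours from 35024735 and from 35025752 had log2 fold changes of -0.10 and 0.09, and their libraries overlapped.

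Bdnf had the fewest separate regions, with 2 of 10, beside 30.9% of all tested regions. An unadjusted p under 0.05 by edgeR was found in 0 of 10, beside 2.81%. The lowest p was 0.111, for the isolated region from 109490401 to 109490795 of chromosome 2, with 44 and 47 counts in KO against 18 and 27 in WT and a log2 difference of 1.01 ± 0.60 (SE). The last region, from 109582912 to 109583454, had 3.75 CPM in KO sample 1 and 0.585 in KO sample 2, while the WT libraries had 1.55 and 1.63. The neighbouring region from 109581643 showed the same, with 2.63 and 0.520 CPM in the KO libraries against 1.87 and 2.21 in WT. At this end of the Bdnf window the KO libraries differed from each other more than from WT.

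KO sample 2 was the highest library in 28 of the 56 regions and the lowest in 11 (shares over all regions not determined). It was above KO sample 1 in 36 of 56, including 5 of 5 for Npas4 and 13 of 18 for Egr1, but in only 3 of 10 for Bdnf, beside 50.4% of 176380 tested regions with a count in every library. The KO libraries were further apart than the WT libraries in 36 of 56 regions, beside 67.6% of all such regions. The median size of the log2 ratio was 0.66 within the KO pair and 0.40 within the WT pair for the 56, beside 0.63 and 0.35. Across the 56 regions, which share these libraries and their depth, Spearman's rho was highest between KO sample 1 and WT sample 1 (0.79) and lowest between KO sample 1 and WT sample 2 (0.60), while the KO libraries stood at 0.62 with each other and the WT libraries at 0.75.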

How the data were processed

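The table deposited by the authors holds unnormalised whole-number counts of reads per region, on the same regions for each of the 4 5hmC libraries. The submitters' processing notes name Bowtie2 2.2.6 and the build mm9. How regions were defined, how reads were counted and how duplicates and multiply matching reads were treated are not given in the sources used here. Counting error is the only error that a floor of 3 counts covers. The genes, and the lists and tests used on their windows, were chosen with earlier results of these data known.

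Groups are the genotypes of the titles, which also give the sample numbers. The 2 inputs were not analysed here. Regions were tested with edgeR 4.0.16 (quasi-likelihood, filterByExpr defaults with a minimum count of 10 and total of 15, TMM scaling) in R 4.3.3. For window sums, counts were added per window and per tile of 50 kb outside the windows, with library sizes from the fit on regions. Standard errors are the log2 fold change divided by the root of F, and intervals are at 95%. An exact permutation test of 2 against 2 cannot give a two-sided p below 0.333. All 5 genes were named, and in each window the regions of highest mean and of lowest p were described, while further regions were chosen after their values were seen. Alternatives were DESeq2 1.42.0, total-count scaling, other count filters, the sample number as a block, each library left out, another window membership, tiles of 100 kb and windows without their highest region. Figures were drawn with matplotlib 3.10.9.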

Additional observations from a re-analysis of the deposited data

How the results depend on the processing

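At adjusted p under 0.05, the count over all regions went from 0 to 6 with DESeq2, 2 without the low-count filter and 79 with the replicate block, and that over tiles and windows from 0 to 1 with DESeq2 and 30 with the block. None of these calls was in the 56 regions or the 5 windows, and the block changed no call there. The sample numbers share only a number in the labels. Libraries of the same number deviated together from their genotype means, with a correlation of 0.164 over tested regions and 0.247 over tiles and windows. With the block, the window log2 fold changes were 0.57 for Npas4, 0.20 for Fos, 0.07 for Arc, -0.01 for Egr1 and 0.18 for Bdnf. Without the highest region of each window they were 0.90, 0.29, 0.34, -0.02 and 0.23 in the same order.

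Leaving out each library in turn gave 7 to 13450 regions in the whole table, 0 to 6 of the 56 regions, 3 to 5939 tiles and windows, and 0 to 1 of the 5 windows. The highest value was in each case the fit without KO sample 1, where the spread came from the WT pair alone. Without KO sample 2 the table gave 1944 regions and 618 tiles and windows. For the window sums, the log2 fold change ranged from 0.03 to 1.08 for Npas4, 0.07 to 0.33 for Fos, -0.26 to 0.40 for Arc, -0.20 to 0.17 for Egr1 and 0.01 to 0.34 for Bdnf. Egr1 was at 0.02 with DESeq2, against a value just below 0.

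Of the regions described, that of Fos from 86838254 ranged from -0.59 to 0.37, that of Npas4 from 4993802 from -0.61 to 0.70, that of Bdnf from 109546622 from -0.03 to 0.12 and that of Egr1 from 35025752 from -0.04 to 0.21. The signs of the differences in the other 5 named regions did not change in any setting. These were the regions of lowest p in their windows, and in each of them the genotypes did not overlap. Leaving out a library could therefore hardly turn their sign, so no conclusion is drawn from this. Per kb covered, the percentiles of level were 86.5 for Fos, 81.2 for Egr1, 42.4 for Arc and 39.0 for Bdnf. Membership by any overlap gave the same 56 regions. For the changes above, the cause was not tested.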
